A study of Homo sapiens with 12 samples.

Results

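The comparison set both silencings together against control silencing in senescent fibroblasts. It used 9 of the 12 RNA-seq libraries of the series: the 3 libraries named siNTRK2_Sen and the 3 named siBDNF_Sen, each siRNA given equal weight, against the 3 named siCtrl_Sen. The cells were WI-38, a human diploid lung fibroblast line, kept at low population doublings. All 9 libraries came from cells given 50 µM etoposide, which breaks DNA through topoisomerase II and drives the cells into senescence, and were collected on day 8. Each carried 25 nM of a pooled siRNA reagent (ON-TARGETplus SMARTpool), directed at NTRK2, at BDNF or at no transcript, so each target was hit by 1 pool and not by separate single siRNAs. The remaining 3 libraries, siCtrl_Prolif, were proliferating cells with the control siRNA at the same dose. They entered the model to estimate the spread between libraries and were not part of the contrast. The question was which genes and programs moved the same way whichever of the ligand or its receptor was silenced.

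BDNF is a secreted neurotrophin, and NTRK2 encodes TrkB, the receptor tyrosine kinase that binds it and signals through the MAP kinase, PI3K and phospholipase C branches. Senescent cells have left the cell cycle for good, yet remain metabolically active, enlarge their lysosomes, rebuild the matrix around them and secrete a mixture of cytokines, proteases and growth factors known as the senescence-associated secretory phenotype (SASP). Fibroblasts in addition make the collagens and laminins of connective tissue and hold on to them through integrins.

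The deposited totals of the 9 senescent libraries ran from 31567912 to 67146223 counted reads. Values below are CPM, counts scaled to a common library size, after TMM correction for differences in library composition, and log2 fold changes are silenced over siCtrl_Sen. Pairs of libraries of 1 group differed beyond counting error. Among the controls siCtrl_Sen 2 differed more from siCtrl_Sen 1 and 3 (chi-square of the counts per gene 10.7 and 12) than these did from each other (4.83). In many genes with values below it was the control nearest to the silenced libraries. Among those higher with silencing these include COL5A1, COL1A2, LAMA4, ITGA11, MMP2 and GUSB. Among those lower they include RPLP2, NDUFB11, COX8A, GAPDH, FTH1, GPX4, MAP1LC3A and ACTA2. In others, such as MT-ND4, CCND2, MKI67, PHGDH and IFI6, it was not, and its part in the results was not tested beyond leaving it out. The library siNTRK2_Sen 2 stood apart on the first principal component of the 9 libraries (61.9, against 16.6 and 19.6 for its 2 companions), so the main counts are also given without it. Fibroblast markers summed to 23300 to 25100 CPM in siCtrl_Sen, 27400 to 30300 in siNTRK2_Sen and 24100 to 24700 in siBDNF_Sen. Markers of epithelial, endothelial, blood, neural, liver and muscle cells summed to 9.38 to 10.9 CPM in siCtrl_Sen, 7.1 to 9.15 in siNTRK2_Sen and 11.7 to 12.8 in siBDNF_Sen, so the sums moved with the siRNA, and their part in the results was not tested. Of the 10 tested, edgeR called 0, with 1 at an unadjusted p under 0.05 and 0 called by DESeq2. In bulk RNA, fewer cells of a kind and less RNA per cell cannot be told apart.

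Each target transcript was lowest with its own siRNA. NTRK2 (chr9:87283290-87710666, hg19, plus strand) had 7, 15 and 10 counts in siCtrl_Sen, none in any siNTRK2_Sen library and 10, 23 and 29 counts in siBDNF_Sen. The receptor transcript was therefore scarce before silencing, and a fitted change against 0 counts does not measure its size. BDNF (chr11:27676440-27743605, minus strand) was at 161, 157 and 169 CPM in siCtrl_Sen, 205, 206 and 203 in siNTRK2_Sen and 48.1, 48.9 and 44.3 in siBDNF_Sen. Its level fell with siBDNF (log2 fold change -1.79) and rose with siNTRK2 (0.34), so neither target is among the genes that moved one way with both siRNAs.

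Of 21518 genes tested with edgeR's quasi-likelihood test, 4661 passed an adjusted p of 0.05 in the pooled comparison, 2349 higher and 2312 lower (21.7% of all, 10.9% higher and 10.7% lower). With libraries scaled by their totals alone 64.7% of the calls were higher, against 50.4% here. The changes were small: the median absolute log2 fold change of those genes was 0.252, and 77 genes (0.358%) also passed an absolute log2 fold change of 1, 40 higher and 37 lower. Of these 77, 64 averaged under 1 CPM. Genes that passed with each siRNA on its own, in the same direction, numbered 1946 (9.04%), 1026 higher (4.77%) and 920 lower (4.28%). All 1946 were among the 4661. Both tests use the same 3 control libraries, so the count is a description and not evidence that the siRNAs acted alike. A further 2525 of the pooled calls passed with exactly 1 of the siRNAs and 165 with neither. The rest passed with both in opposite directions, as 183 of all genes did (0.85%). Comparing the siRNAs with each other, without the controls, 3595 genes differed (16.7%), of which 1387 were pooled calls. In 3294 of all genes (15.3%) the silenced and control libraries did not overlap, and in 2759 of the 4661 pooled calls. The largest shared changes named below were chosen for lacking overlap, so for those genes it is no result. Every list count below is to be read beside the shares of all genes given here. Without siNTRK2_Sen 2 the pooled count was 4873 and the count with both siRNAs 1984. The control libraries weighed more: the pooled count fell to 2826 without siCtrl_Sen 1 and to 2810 without siCtrl_Sen 3, and the count with both siRNAs to 1059 and 1085. Without siCtrl_Sen 2 the counts rose to 4841 and 2454.

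**Figure D1:**
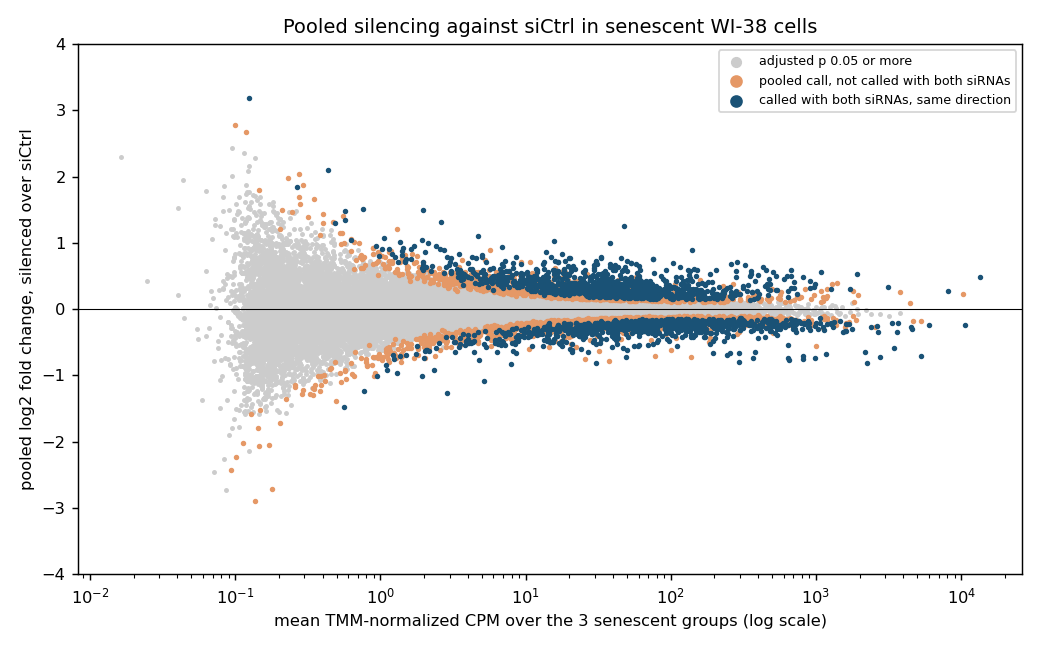
Pooled log2 fold change (silenced over siCtrl_Sen, vertical axis) of the 21518 genes tested against their mean CPM over the 3 senescent groups (log scale). Grey points did not pass an adjusted p of 0.05 in the pooled comparison, and the 1946 dark blue points passed with both siRNAs in 1 direction. Orange points are all other pooled calls, with opposite calls by the siRNAs among them. Most of the called genes lie within 1 log2 unit of 0.

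Long transcripts were called higher more often, and short ones lower. In 5 equal bins by the length of a gene's longest transcript, the shortest bin had 2.48% called higher and 11.8% lower, and the longest bin 28.2% higher and 5.47% lower. Across 20738 genes with an annotated length, Spearman's rho between length and the pooled log2 fold change was 0.215, and with GC content it was -0.206. These are correlations across genes, which are not independent replicates. A fit with an offset for length and GC content in each library, chosen after seeing the data, called 4701 genes, 2221 higher (10.3%) and 2480 lower (11.5%), and 3538 genes were called in the same direction in both fits. Since ribosomal and respiratory chain transcripts are short and collagen transcripts long, the counts with the offset stand beside those lists below, and the part of length in these results was not tested further.

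**Figure D2:**
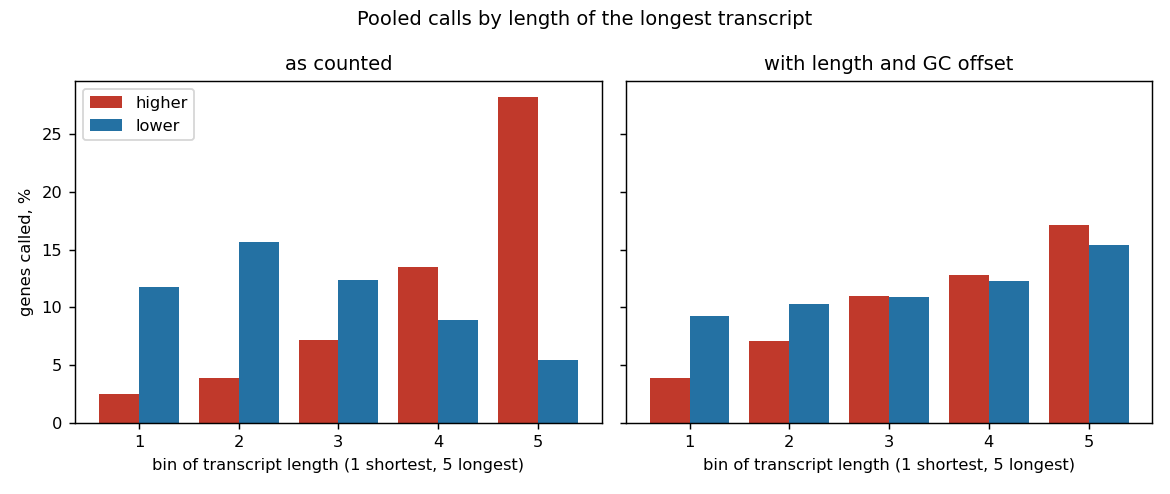
Percent of genes called higher (red) and lower (blue) in the pooled comparison, by bin of transcript length (5 bins of equal size), as counted (left) and with the length and GC offset (right). As counted, the higher calls climb from 2.48% to 28.2% from the shortest to the longest bin, and with the offset from 3.91% to 17.1%. The lower calls go from 11.8% in the shortest bin to 5.47% in the longest as counted, and from 9.21% to 15.4% with the offset.

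Most of the listed genes for anchoring fibroblasts to their matrix rose with both siRNAs. In a list of 26 integrins, laminins and related glycoproteins, 18 were called higher and 1 lower in the pooled comparison (10.9% and 10.7% of all genes), and 14 were higher with both siRNAs. The median log2 fold change was 0.33, against 0.00 over all genes, and 0.33 with siNTRK2 and 0.28 with siBDNF. With the length and GC offset 17 were higher and 3 lower. ITGA11, the collagen-binding integrin subunit typical of fibroblasts, was at 22.1, 24.6 and 22.2 CPM in siCtrl_Sen, 52.4, 48.8 and 49.1 in siNTRK2_Sen and 40.7, 46.3 and 39.5 in siBDNF_Sen. Its pooled log2 fold change was 1.0 ± 0.0599 (SE, adjusted p = 5.41e-11). LAMA4, a laminin chain of mesenchymal basement membranes, was at 190, 225 and 187 CPM in siCtrl_Sen, 337, 344 and 338 in siNTRK2_Sen and 310, 341 and 304 in siBDNF_Sen, without overlap (0.71 ± 0.0504). Its difference between the siRNAs did not pass the test (log2 0.09, adjusted p = 0.29). LAMA2, the laminin chain of muscle and nerve basement membranes, rose by 0.59 ± 0.0805, and ITGA6, a laminin receptor subunit, by 0.53 ± 0.0446, more with siBDNF (0.79) than with siNTRK2 (0.27). The 1 member called lower was THBS1, thrombospondin 1, at -0.11, with -0.01 for siNTRK2 and -0.21 for siBDNF. Its call was lost without siCtrl_Sen 1 (-0.11, adjusted p = 0.0662) and without siBDNF_Sen 1 (-0.10, adjusted p = 0.0541).

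Collagens rose in the same comparison, by more with siNTRK2. Of 21 collagen genes 16 were called higher and none lower, and 11 were higher with both siRNAs. The median log2 fold change was 0.37 pooled, 0.54 with siNTRK2 and 0.16 with siBDNF, and 19 of the 21 differed between the siRNAs. The offset left 16 higher and none lower. COL5A1, a fibril-starting collagen chain, was at 301, 342 and 295 CPM in siCtrl_Sen, 599, 509 and 558 in siNTRK2_Sen and 409, 437 and 415 in siBDNF_Sen. The 3 groups did not overlap, and the pooled rise was 0.63 ± 0.0519 (adjusted p = 6.19e-09). COL16A1, a collagen that decorates fibrils, rose by 0.75 ± 0.0668, COL11A1, another fibril-starting chain, by 0.59 ± 0.0566, and COL18A1, the basement membrane collagen that holds endostatin, by 0.58 ± 0.0619. For each of these the siNTRK2 change was the larger and the difference between the siRNAs passed the test. COL1A2, a chain of the main fibrillar collagen, went from 6837, 7674 and 6781 CPM in siCtrl_Sen to 9320, 8713 and 8853 in siNTRK2_Sen and 8153, 8373 and 8259 in siBDNF_Sen, a smaller pooled rise of 0.28 ± 0.0384.

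Proteases that work on this matrix moved with it in part. Among 19 tested SASP proteases and inhibitors 10 were higher and 3 lower, but only 2 were higher and 1 lower with both siRNAs, and 12 differed between them. MMP14, a membrane-bound collagenase, was at 811, 828 and 820 CPM in siCtrl_Sen, 1009, 931 and 951 in siNTRK2_Sen and 1158, 1201 and 1172 in siBDNF_Sen. MMP2, the gelatinase that MMP14 activates, was at 1417, 1568 and 1439 CPM, 1955, 1835 and 1835 and 1728, 1807 and 1794 in the same order. These were the 2 members that rose with both siRNAs, by 0.38 ± 0.0364 and 0.31 ± 0.039. PLAT, tissue plasminogen activator, was the 1 that fell with both (pooled -0.43 ± 0.0381). TIMP3, a matrix-bound metalloproteinase inhibitor, fell with siNTRK2 (-1.11) and was at 0.01 with siBDNF, whereas SERPINE2, a protease inhibitor of the extracellular space, rose with siBDNF (0.73) and was at 0.01 with siNTRK2. FAP, the serine protease of activated fibroblasts, rose with both by 0.54 ± 0.0577, and THY1, a surface glycoprotein of fibroblasts, fell with both by 0.40 on the log2 scale.

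**Figure D3:**
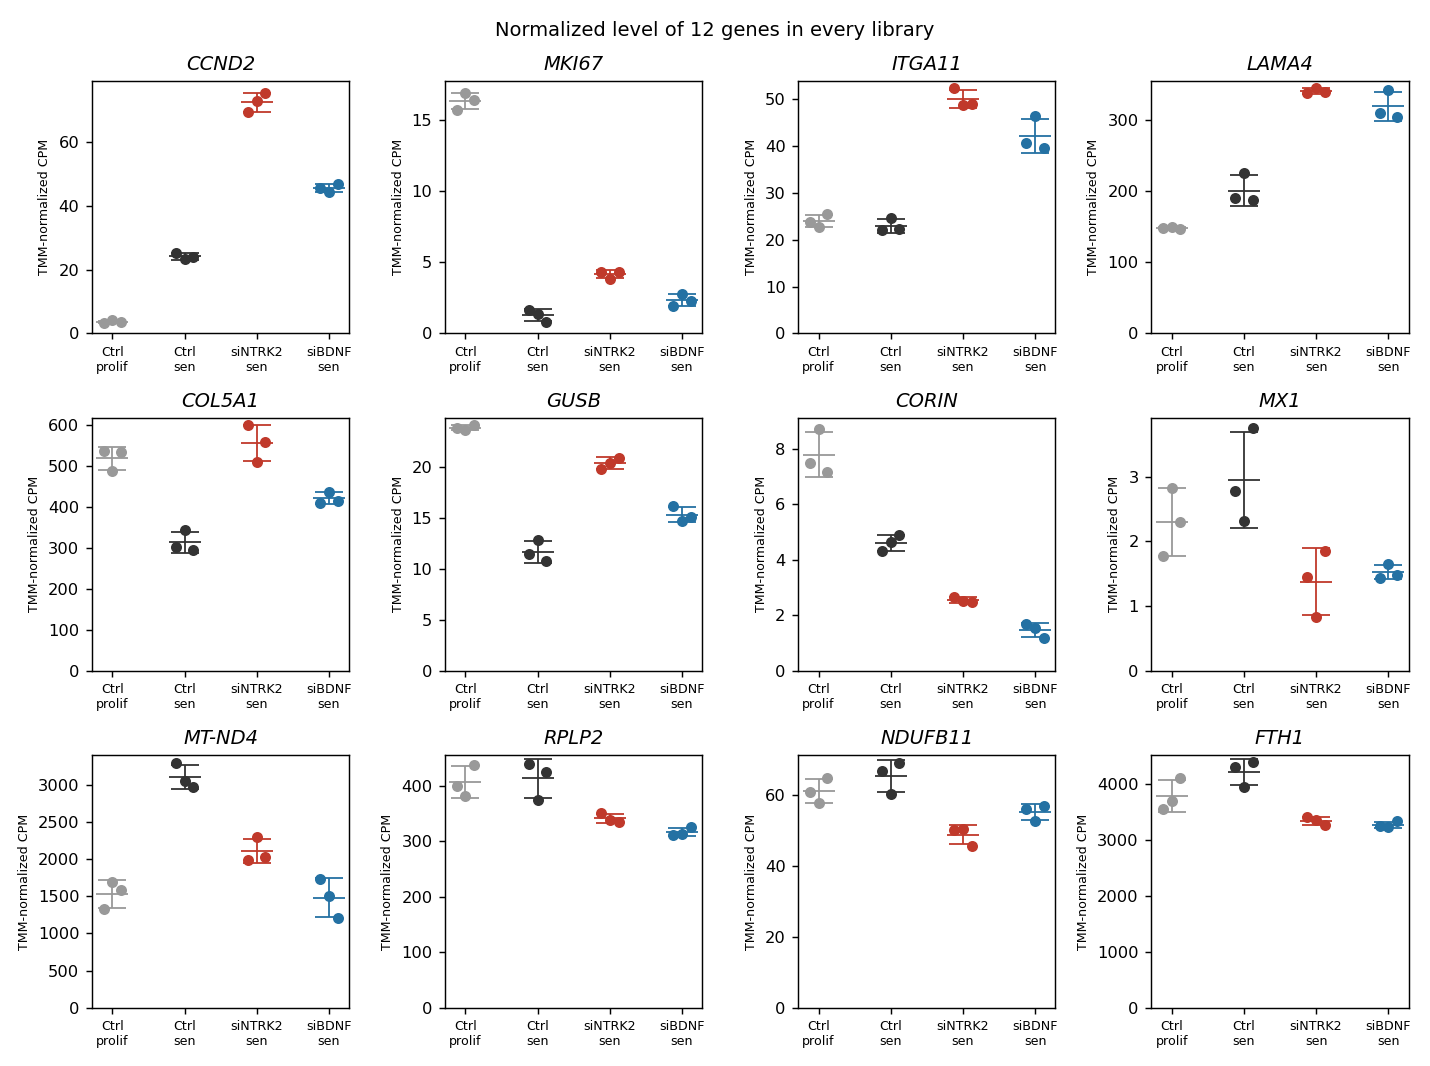
TMM-normalized CPM (vertical axes, from 0) of 12 genes in every library: siCtrl_Prolif (grey), siCtrl_Sen (black), siNTRK2_Sen (red) and siBDNF_Sen (blue). Points are libraries, and bars show the mean and SD of 3. In all 12 panels the 6 silenced libraries lie on 1 side of the 3 siCtrl_Sen libraries. LAMA4, for example, had at least 304 CPM when silenced and at most 225 in siCtrl_Sen. Several of these genes were named for lacking overlap, and 15.3% of all genes tested lacked it.

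Cyclin D2 and several genes of chromosome segregation were among the largest increases shared by both siRNAs. This ranking covers only genes with a symbol, averaging at least 1 CPM and without overlap between silenced and control libraries. CCND2, the D-type cyclin that partners CDK4 and CDK6 (chr12:4378937-4414519), was at 25.3, 23.2 and 23.9 CPM in siCtrl_Sen, 69.2, 72.6 and 75.2 in siNTRK2_Sen and 45.5, 44.3 and 46.8 in siBDNF_Sen. Its pooled log2 fold change was 1.25 ± 0.0555 (adjusted p = 1.84e-13), larger with siNTRK2 than with siBDNF. Proliferating control cells had less CCND2 than any senescent library, at a mean of 3.64 ± 0.418 CPM (SD, n = 3). MKI67, the proliferation marker Ki-67, was at 1.64, 1.38 and 0.814 CPM in siCtrl_Sen, 4.35, 3.85 and 4.36 in siNTRK2_Sen and 1.95, 2.79 and 2.30 in siBDNF_Sen (1.31 ± 0.153). Every silenced library stayed far below the proliferating mean of 16.4 ± 0.587 CPM. CENPF and CENPE, kinetochore proteins, rose by 1.10 ± 0.147 and 1.03 ± 0.209, ASPM, a spindle pole protein, by 0.99 ± 0.206, and KNL1, the kinetochore scaffold, by 0.95 ± 0.178. These 4 have transcripts of 8742 to 11085 bases and lay between 0.73 and 6.82 CPM in the senescent libraries.

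Most other mitotic genes separated the siRNAs. In a list of 28, 17 were called higher and none lower in the pooled comparison, yet only CENPE, CENPF and MKI67 were higher with both, and 23 differed between the siRNAs. With the 6 silenced libraries as 1 group, 3 of the 28 were called higher. The list's median was 0.80 with siNTRK2 and -0.01 with siBDNF. TTK, a spindle checkpoint kinase, was at 1.05, 0.999 and 1.09 CPM in siCtrl_Sen, 2.2, 2.36 and 2.38 in siNTRK2_Sen and 1.65, 1.09 and 0.961 in siBDNF_Sen. The siBDNF libraries overlapped the controls, and the pooled value of 0.65 rested on siNTRK2. Of 29 DNA replication genes 4 were higher (13.8%, beside 10.9% of all genes) and 1 lower (3.45%, beside 10.7%), and CDC6, which loads the replicative helicase, was the only one higher with both (0.60 ± 0.103). Among cell cycle kinases and inhibitors, CDK2 rose by 0.29 ± 0.0472 and CDKN2B, the inhibitor p15, by 0.58 ± 0.0512, and CCND3, a further D-type cyclin, fell by 0.23 on the log2 scale. CDKN1A, the inhibitor p21, fell with siNTRK2 (-0.50) and was at -0.04 with siBDNF (adjusted p = 0.548).

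The promoter of MKI67 is an example, the most changed named mitotic gene with 1 listed start and the motif below. MKI67 was chosen for holding the motif, so the match is no result. The 250 bases before its start site (chr10:128126424-128126673, minus strand) were read from RefSeq on GRCh38.p14, a later build than the hg19 of the counts, and capitals mark TTTGAA, the core of the cell cycle homology region, on either strand.
MKI67: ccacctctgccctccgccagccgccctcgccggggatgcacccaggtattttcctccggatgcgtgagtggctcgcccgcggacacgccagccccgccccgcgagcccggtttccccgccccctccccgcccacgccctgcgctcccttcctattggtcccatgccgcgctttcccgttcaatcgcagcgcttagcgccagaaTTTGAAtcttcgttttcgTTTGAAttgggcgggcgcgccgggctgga
The hexamer occurs 2 times in this window. At least 1 window of 12 of the 23 mitotic genes matched in the table (52.2%) held it, against 16.1% of all 27305 genes with a listed start. A match is only a run of letters and was not tested as a site.

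Transcripts of the mitochondrial genome had the lowest median of the 38 lists. All 13 protein-coding genes of the respiratory chain that mitochondria encode were called lower, 12 of them with both siRNAs. The median log2 fold change was -0.73, with -0.47 for siNTRK2 and -0.97 for siBDNF, and all 13 differed between the siRNAs. MT-ND4, a complex I subunit, was at 3292, 3052 and 2973 CPM in siCtrl_Sen, 1992, 2291 and 2030 in siNTRK2_Sen and 1735, 1502 and 1206 in siBDNF_Sen. Its pooled log2 fold change was -0.82 ± 0.0745 (adjusted p = 2.37e-08), and the siBDNF libraries lay on both sides of the mean of proliferating cells (1532 ± 186 CPM, SD, n = 3). MT-CO1, the catalytic subunit of cytochrome c oxidase, was at 7335, 6990 and 6845 CPM in siCtrl_Sen, 5012, 6025 and 5121 in siNTRK2_Sen and 4038, 3523 and 2914 in siBDNF_Sen. MT-ND3 was the exception, at 0.00 with siBDNF and -0.25 with siNTRK2, and its pooled call (-0.12, adjusted p = 0.0461) was lost when any 1 of 6 of the libraries was left out, with an adjusted p of up to 0.229 without siCtrl_Sen 1. MT-TM, the mitochondrial methionine tRNA, and MTATP6P1, a nuclear copy of mitochondrial sequence on chromosome 1, fell by 0.97 and 0.80 on the log2 scale. Reads from the copy and from MT-ATP6 cannot be told apart with certainty.

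Nuclear genes of the same respiratory chain were lower by a smaller amount and more evenly. Of 76 nuclear subunit genes of complexes I to V, 53 were called lower and none higher, 36 lower with both siRNAs, and only 5 differed between the siRNAs. Their median was -0.18, with -0.17 for siNTRK2 and -0.19 for siBDNF, and 51 were lower with the offset. Without siCtrl_Sen 3 the 53 became 27, without siCtrl_Sen 1 they became 34, and without siCtrl_Sen 2 they became 61. NDUFB11, a complex I subunit, was at 66.8, 60.0 and 68.9 CPM in siCtrl_Sen, 50.2, 50.3 and 45.6 in siNTRK2_Sen and 56.0, 52.6 and 56.6 in siBDNF_Sen (-0.33 ± 0.0508). COX8A, a complex IV subunit, was at 143, 125 and 141 CPM, 111, 102 and 112 and 105, 107 and 116 in the same order (-0.32 ± 0.0504). In both genes the lowest control stood nearest to the silenced libraries without reaching them. ATP5MF of the ATP synthase and NDUFB10 of complex I fell by 0.30 and 0.29 on the log2 scale.

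The COX8A promoter (chr11:63974370-63974619, plus strand, 250 bases before the start) was likewise chosen among members whose window holds the motif. Capitals mark TTCCGG, the core bound by ETS factors, on either strand.
COX8A: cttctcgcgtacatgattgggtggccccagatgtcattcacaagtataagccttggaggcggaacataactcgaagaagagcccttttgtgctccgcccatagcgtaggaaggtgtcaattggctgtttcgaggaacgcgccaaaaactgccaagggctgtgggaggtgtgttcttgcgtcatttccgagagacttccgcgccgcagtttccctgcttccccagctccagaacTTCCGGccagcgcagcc
This hexamer occurs 1 time in the window. It was held by 28 of 62 matched genes of the list (45.2%), against 17.2% of all genes with a listed start.

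Ribosomal protein genes fell almost as a block. Of 79 genes for proteins of the cytosolic ribosome 75 were called lower and none higher, 53 lower with both siRNAs and 72 lower with the offset. The median log2 fold change was -0.22, with -0.18 for siNTRK2 and -0.27 for siBDNF, so the typical decrease was small. RPLP2, of the stalk, was at 440, 374 and 426 CPM in siCtrl_Sen, 350, 338 and 336 in siNTRK2_Sen and 312, 313 and 325 in siBDNF_Sen (-0.33 ± 0.0467, adjusted p = 1.23e-05). RPS27, of the small subunit, fell by 0.33 ± 0.0551 on the log2 scale. RPS28 fell most of the list, -0.67, and more with siNTRK2 (-1.06) than with siBDNF (-0.28). Ribosomal protein genes have many near-identical pseudogenes, so their counts are uncertain to that extent. Without siCtrl_Sen 3, 51 of the 79 were called lower.

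**Figure D4:**
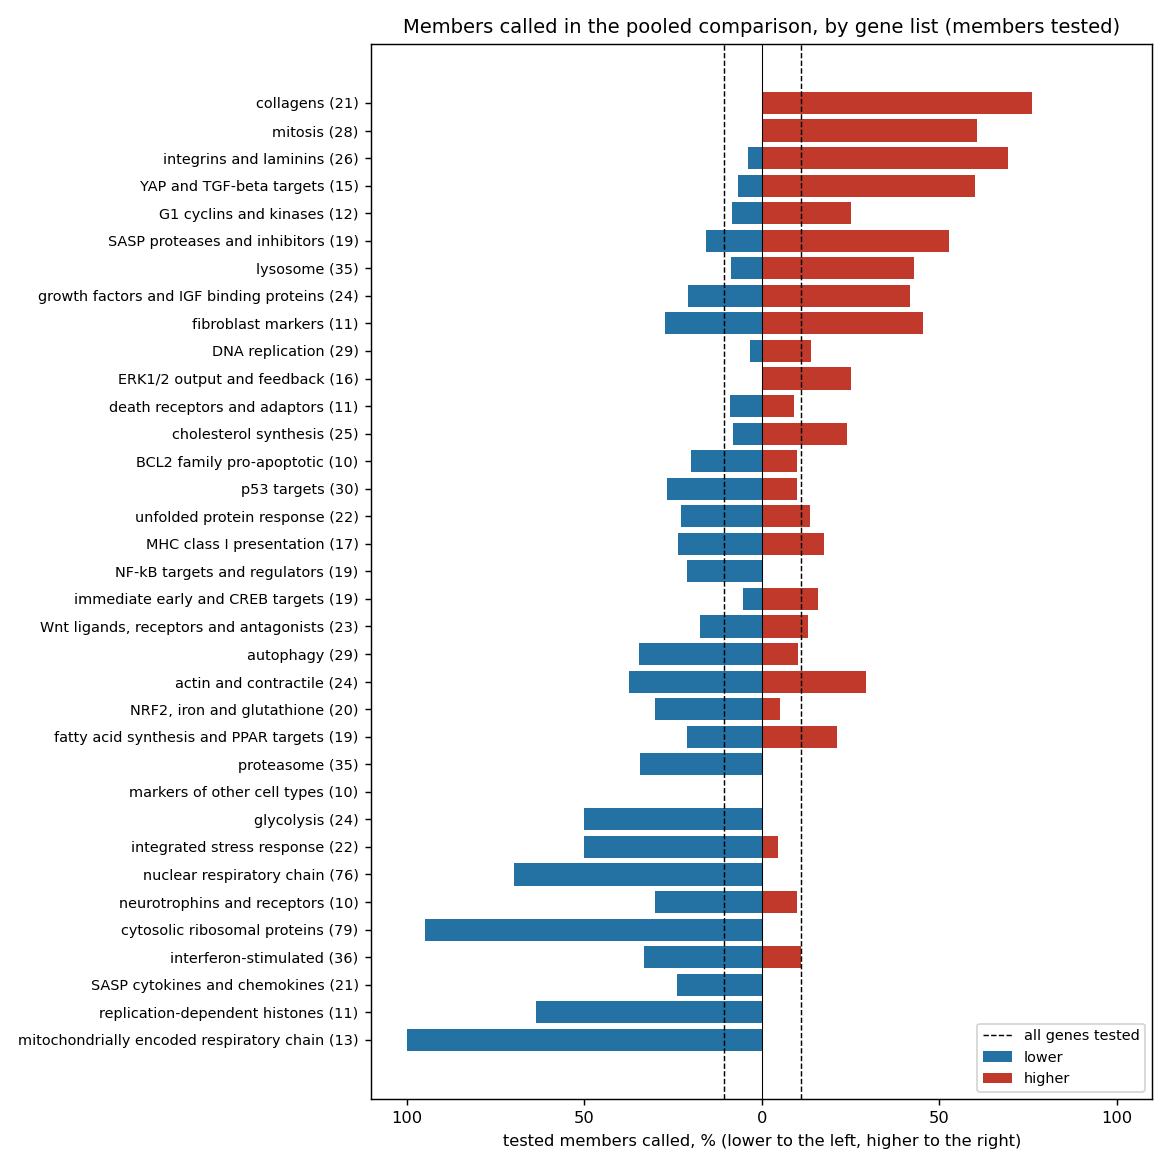
Percent of the tested members of 35 gene lists called lower (blue, to the left) and higher (red, to the right) in the pooled comparison, for lists with at least 10 members tested. Dashed lines mark the 10.7% lower and 10.9% higher of all genes. Cytosolic ribosomal proteins (94.9% lower) and collagens (76.2% higher) lie far beyond the lines on opposite sides.

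Several glycolysis genes were lower. Of 24 glycolysis genes 12 were called lower (50%, beside 10.7% of all genes) and none higher, 6 lower with both siRNAs. The median was -0.11, and 6 were called lower with the 6 silenced libraries as 1 group. GAPDH was at 5492, 4884 and 5442 CPM in siCtrl_Sen, 4018, 3949 and 3992 in siNTRK2_Sen and 4544, 4423 and 4702 in siBDNF_Sen (-0.31 ± 0.0416). ALDOA, muscle-type aldolase, fell by 0.31 ± 0.0447 on the log2 scale, ALDOC, brain-type aldolase, by 0.42 ± 0.0816, and SLC2A1, the glucose transporter GLUT1, by 0.36 ± 0.0371. With the offset the split was 2 higher and 12 lower. The integrated stress response list holds the ATF4 targets for amino acid synthesis and tRNA charging. It had 11 of 22 called lower (50%, beside 10.7% of all genes) and 1 higher (4.55%, beside 10.9%), 6 and 1 with both siRNAs. PHGDH, the first enzyme of serine synthesis, was at 29.1, 28.6 and 26.8 CPM in siCtrl_Sen, 22.5, 23.6 and 23.9 in siNTRK2_Sen and 19, 18.8 and 19.7 in siBDNF_Sen (-0.41 ± 0.0489). PSAT1, the next enzyme of that path, fell by 0.36, AARS1, which charges alanine tRNA, by 0.32 and NUPR1, a stress-responsive transcription cofactor, by 0.33 on the log2 scale. SLC7A11, the cystine importer, moved the other way (0.39 ± 0.0549, and 0.18 with the offset). Without siCtrl_Sen 1 or siCtrl_Sen 3 the 11 became 7.

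Ferritin and glutathione peroxidase fell with both siRNAs. FTH1, the heavy chain that oxidises and stores iron, was at 4318, 3952 and 4393 CPM in siCtrl_Sen, 3412, 3358 and 3263 in siNTRK2_Sen and 3255, 3237 and 3337 in siBDNF_Sen (-0.35 ± 0.0412, adjusted p = 1.02e-06). GPX4, which reduces lipid peroxides, was at 254, 224 and 243 CPM, 193, 181 and 182 and 188, 182 and 197 (-0.36 ± 0.046). FTL, the light chain, fell by 0.23 ± 0.0473 on the log2 scale. These were the 3 of 20 NRF2, iron and glutathione genes that fell with both. The list had 6 lower and 1 higher, the 1 being SLC7A11, and 10 lower with the offset. SLC40A1, the iron exporter ferroportin, fell with siNTRK2 (-0.96) and was at -0.18 with siBDNF.

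Called lysosome genes were mostly higher, and called autophagy genes mostly lower. Of 35 lysosome genes 15 were called higher (42.9%, beside 10.9% of all genes) and 3 lower (8.57%, beside 10.7%). With both siRNAs 10 were higher and 1 lower. The pooled split with the offset was 16 and 4. GUSB, beta-glucuronidase, was at 11.4, 12.8 and 10.8 CPM in siCtrl_Sen, 19.8, 20.4 and 20.9 in siNTRK2_Sen and 16.2, 14.7 and 15.1 in siBDNF_Sen (0.60 ± 0.0646). MAN2B1, lysosomal alpha-mannosidase, rose by 0.49 ± 0.0562, CTSA, the protective protein cathepsin A, by 0.36 ± 0.0395, and HEXA, a hexosaminidase chain, by 0.33 ± 0.0406. All 4 were higher in every silenced library than in any control. CD63, a lysosomal membrane tetraspanin, was the 1 member lower with both (-0.23 ± 0.0405). Among 29 autophagy genes 10 were lower (34.5%, beside 10.7% of all genes) and 3 higher (10.3%, beside 10.9%), 5 and 2 with both. The higher share was thus that of all genes, and nothing is read from it. The higher ones numbered 1 without siCtrl_Sen 3 and 5 without siNTRK2_Sen 2. MAP1LC3A, an LC3 protein of the autophagosome membrane, was at 24.5, 22.2 and 24.3 CPM in siCtrl_Sen, 16.4, 15.5 and 18.5 in siNTRK2_Sen and 17.6, 15.3 and 16.9 in siBDNF_Sen (-0.50 ± 0.0679). GABARAP, of the same family, and SQSTM1, the cargo receptor p62, fell by 0.25 and 0.22 on the log2 scale, whereas RB1CC1, a large scaffold of the initiating kinase complex, rose by 0.36 ± 0.0714.

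Among interferon-stimulated genes more were called lower than higher, and most were not called. Of 36 genes 12 were called lower (33.3%, beside 10.7% of all genes) and 4 higher (11.1%, beside 10.9%). The higher share was thus near that of all genes, and nothing is read from it. With both siRNAs 6 were lower and 2 higher, and the median was -0.25, with -0.36 for siNTRK2 and -0.12 for siBDNF. MX1, a dynamin-like antiviral GTPase, was at 2.78, 2.31 and 3.76 CPM in siCtrl_Sen, 1.46, 0.827 and 1.84 in siNTRK2_Sen and 1.44, 1.66 and 1.48 in siBDNF_Sen. Its pooled log2 fold change was -1.02 ± 0.193 (adjusted p = 0.000405). IFI6, a small mitochondrial protein that interferon induces, was at 26.9, 27.8 and 25.7 CPM, 12.6, 12.5 and 14.1 and 21.3, 21.7 and 23.8, lower with siNTRK2 than with siBDNF (-0.65 ± 0.0589). OASL, an oligoadenylate synthetase-like protein, was under 1 CPM throughout and fell by 1.38 ± 0.315, a change that passed with siNTRK2 and not with siBDNF (-0.81, adjusted p = 0.126). SAMD9, a growth-restraining antiviral factor, and RIGI, the sensor of viral RNA, went the other way, by 0.72 ± 0.0971 and 0.24 ± 0.0581. Antigen presentation was mixed: of 17 MHC class I genes 3 rose and 3 fell with both. NLRC5, the class I transactivator, rose by 0.32, but was not called without siCtrl_Sen 1 (0.28, adjusted p = 0.078) or siCtrl_Sen 3 (0.27, adjusted p = 0.0859), and HLA-E, the peptide transporter subunit TAP1 and the immunoproteasome subunit PSMB8 fell by 0.24, 0.24 and 0.31 on the log2 scale.

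The IFI6 promoter (chr1:27672193-27672442, minus strand, 250 bases before the start) was likewise chosen among members whose window holds the motif. Capitals mark GAAA, any 2 bases and GAAA, the core of the interferon-stimulated response element, on either strand.
IFI6: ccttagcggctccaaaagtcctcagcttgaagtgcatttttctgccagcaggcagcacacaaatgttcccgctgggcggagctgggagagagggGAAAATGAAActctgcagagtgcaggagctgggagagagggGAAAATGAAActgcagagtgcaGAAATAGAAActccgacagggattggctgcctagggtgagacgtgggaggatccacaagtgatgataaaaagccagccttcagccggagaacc
The motif occurs 3 times. It was held by 20 of the 29 matched genes of the list (69%) and by 3.71% of all genes with a listed start, whichever way the gene moved.

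Actin and contractile genes were called in both directions. Of 24 actin and contractile genes 7 were higher (29.2%, beside 10.9% of all genes) and 9 lower (37.5%, beside 10.7%). With both siRNAs these were 2 and 5, and without siCtrl_Sen 1 the higher ones numbered 4. ACTA2, smooth muscle actin, was at 298, 264 and 299 CPM in siCtrl_Sen, 232, 227 and 233 in siNTRK2_Sen and 185, 180 and 187 in siBDNF_Sen (-0.48 ± 0.0439). TPM2, a tropomyosin, and MYL9, a myosin light chain, fell by 0.35 and 0.32 on the log2 scale. MYH9, the heavy chain of non-muscle myosin, and TLN1, which ties integrins to actin, were the 2 that rose with both, by 0.43 ± 0.042 and 0.23 ± 0.0369. In the YAP and TGF-beta target list 9 of 15 were higher and 1 lower, 4 and none with both. ANKRD1, a nuclear ankyrin-repeat protein and YAP target, was at 5.31, 5.98 and 5.96 CPM in siCtrl_Sen, 10.3, 12.3 and 10.6 in siNTRK2_Sen and 8.73, 8.08 and 6.78 in siBDNF_Sen. LTBP2, a microfibril protein, rose by 0.50 ± 0.0483 and PMEPA1, a TGF-beta induced membrane protein, by 0.40 ± 0.0617.

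The inflammatory SASP did not move as 1 program. Of 21 cytokines and chemokines 5 were lower and none higher in the pooled comparison (2 lower without siCtrl_Sen 1, and 3 without siCtrl_Sen 3, siNTRK2_Sen 2, siNTRK2_Sen 3 or any siBDNF_Sen library), and CCL2, the monocyte chemoattractant, was the 1 lower with both. It was at 16.6, 17.1 and 16.7 CPM in siCtrl_Sen, 10.7, 11.6 and 10.6 in siNTRK2_Sen and 12.9, 10.5 and 12.4 in siBDNF_Sen (-0.56 ± 0.068). The median was -0.65 with siNTRK2 and 0.23 with siBDNF, and 12 of the 21 differed between the siRNAs. CXCL8, interleukin 8, was at 35.3, 38.7 and 39.1 CPM in siCtrl_Sen, 11.9, 13.5 and 14.2 in siNTRK2_Sen and 45.6, 43.3 and 46.2 in siBDNF_Sen, below the controls in the one and above them in the other. The pooled value of -0.63 is an average of opposite changes. Among 19 NF-kB targets and regulators 4 were lower, and RELA, the p65 subunit itself, fell with both (-0.28 ± 0.0426). Growth factors gave 10 higher (41.7%, beside 10.9% of all genes) and 5 lower (20.8%, beside 10.7%) of 24, 4 and 2 with both. AREG, an EGF receptor ligand, was at 12.6, 13 and 11.5 CPM in siCtrl_Sen, 15.1, 14.9 and 16.5 in siNTRK2_Sen and 20.3, 23.8 and 21.9 in siBDNF_Sen (0.58 ± 0.0707). IGFBP7 and PDGFA rose by 0.45 and 0.40, PDGFA without a call when siCtrl_Sen 3 was left out (0.35, adjusted p = 0.0502), and FGF7 and IGFBP4 fell by 0.23 and 0.23 on the log2 scale. The lowest siBDNF_Sen value of IGFBP7 lay within the range of the controls.

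**Figure D5:**
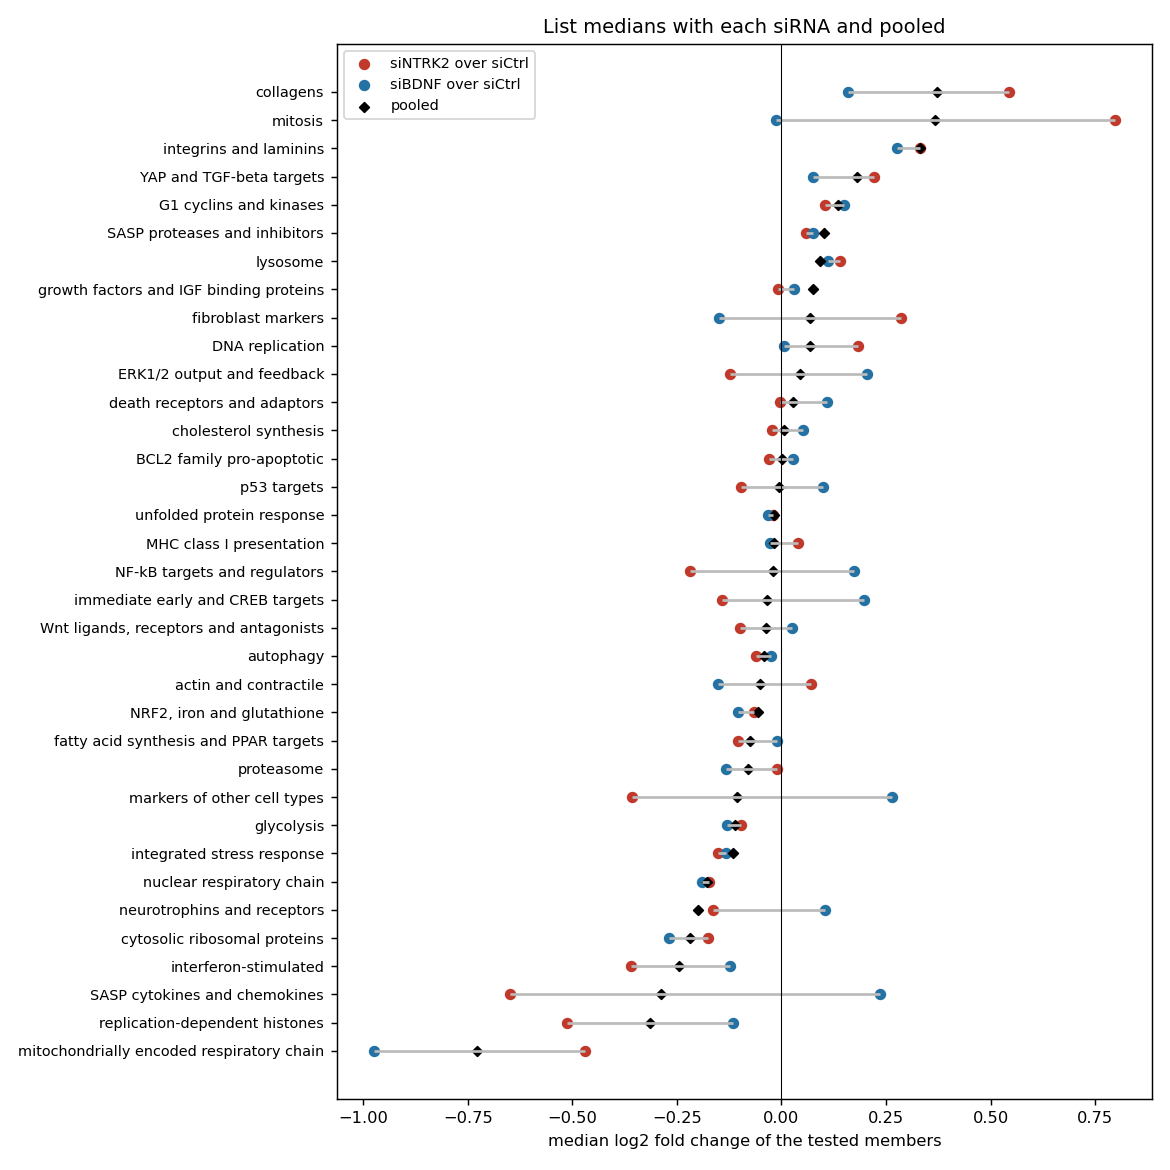
Median log2 fold change of the tested members of the same 35 lists with siNTRK2 (red), with siBDNF (blue) and pooled (black diamonds), all against the same 3 siCtrl_Sen libraries. Red and blue lie close together for the nuclear respiratory chain (-0.17 and -0.19), and on opposite sides of 0 for SASP cytokines and chemokines (-0.65 and 0.23).

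In the survival lists, calls with both siRNAs numbered 0 of 15 BCL2 family genes, 2 of 11 death receptors and adaptors and 3 of 30 p53 targets. In the lists for the MAP kinase branches they numbered 0 of 16 ERK1/2 output genes and 1 of 9 ERK5 pathway and MEF2 genes. Beside 9.04% of all genes, nothing particular to these lists is read from them. Of 5 tested anti-apoptotic BCL2 family genes 1 was called higher and 1 lower, and of 10 pro-apoptotic ones 1 was higher and 2 were lower. The lower anti-apoptotic call was lost without siCtrl_Sen 1 or siCtrl_Sen 2, with libraries scaled by totals and with the offset. Both anti-apoptotic calls were lost with the 6 silenced libraries as 1 group. MCL1, which holds back the pore-forming members, rose in the pooled comparison (0.25 ± 0.0387) through siBDNF (0.46), with 0.05 for siNTRK2. Among death receptors and adaptors TNFRSF1A, the main TNF receptor, fell with both (-0.15 ± 0.0386, though -0.13 with an adjusted p of 0.0556 without siCtrl_Sen 1), and CFLAR, which blocks caspase 8, rose with both (0.17 ± 0.0486) but was at 0.00 with the length and GC offset and at 0.14 without siCtrl_Sen 3 (adjusted p = 0.104). Of 16 ERK1/2 output genes 4 were higher and none lower, and 12 differed between the siRNAs. The 4 became 2 without siCtrl_Sen 1, siCtrl_Sen 2 or siBDNF_Sen 3. Of 9 ERK5 pathway and MEF2 genes 1 was higher and 1 lower. With libraries scaled by totals or with the offset, 3 of them were higher and none lower. Of 30 p53 targets 3 were higher and 8 lower (5 lower without siCtrl_Sen 1 or siBDNF_Sen 2, and 6 higher and 5 lower with libraries scaled by totals), and those with both were SESN1, a stress-induced brake on mTORC1 (0.34), PLK2, a polo-like kinase (0.22), and CMBL, a hydrolase (-0.31).

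The remaining large shared changes lay outside these lists. L1CAM, JAG2, DSG2, XKRX and TMEM132B were chosen partly for lying above every control in all 6 silenced libraries. L1CAM, a neural adhesion molecule, rose by 0.94 ± 0.0972, JAG2, a Notch ligand, by 0.91 ± 0.198 and DSG2, a desmosomal cadherin, by 0.95 ± 0.159. XKRX rose by 1.08 ± 0.25 and TMEM132B by 1.03 ± 0.0862. L1CAM rose more with siBDNF (1.27) than with siNTRK2 (0.61). CORIN, the membrane protease that activates natriuretic peptides (chr4), was at 4.29, 4.63 and 4.88 CPM in siCtrl_Sen, 2.65, 2.50 and 2.48 in siNTRK2_Sen and 1.68, 1.52 and 1.2 in siBDNF_Sen. It was the largest shared decrease of a named gene averaging at least 1 CPM (-1.27 ± 0.115, adjusted p = 2.26e-08). WFDC1, a secreted protease inhibitor-like protein, was at 44.6, 41.9 and 39.6 CPM, 29.7, 29.6 and 27.9 and 20.1, 19.7 and 19.7 (-0.81 ± 0.054). Both fell more with siBDNF. PIANP, PRRT2 and FAIM2, genes best known from neurons, fell by 0.82, 0.91 and 0.84 on the log2 scale, and the noncoding RNAs RIPOR3-AS1 and SNHG19 and the pseudogene CEACAMP10 by 1.08, 0.77 and 0.92. RIPOR3-AS1 lies antisense to a gene, and whether reads were counted by strand is not given in the sources used here. FABP4, a fatty acid carrier near 1 CPM or below, fell by 1.47 ± 0.243.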

How the data were processed

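Per the labels, RNA of WI-38 cells was made into stranded poly(A) libraries (TruSeq). According to the submitters' processing notes bcl2fastq 2.20.0.422, cutadapt, STAR 2.4.0j and featureCounts 1.6.4 were used, on hg19, and the authors deposited raw counts per gene, 57773 Ensembl genes in each of 12 libraries. The counting's strand setting is not given in the sources used here. Symbols came from a gene name table, and lengths and GC content from GENCODE lifted to GRCh37.

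The counts were tested with edgeR 4.0.16 (R 4.3.3) by its quasi-likelihood test with TMM scaling and 1 term per group over all 12 libraries, after edgeR's filter on low counts, which left 21518 genes. The contrast was the mean of siNTRK2_Sen and siBDNF_Sen minus siCtrl_Sen. P-values were adjusted by Benjamini-Hochberg over all genes tested, and a call is an adjusted p under 0.05. The test was run on counts simulated from its own fitted model, with 200 changed genes above 1 CPM and the same change for both siRNAs. The simulation therefore does not cover changes in scarcer genes, differences between the siRNAs or an outlying library. Promoters came from RefSeq (Python 3.11.15). Per motif 1 gene with 1 listed start was chosen, the most changed of the called genes named here whose window held the motif.

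Named genes were the 2 targets, the 12 largest increases and 12 largest decreases called with both siRNAs without overlap at 1 CPM or more, and up to 4 called members in each direction of 38 lists (881 of 891 entries matched). The largest changes were taken among genes with a symbol, leaving out XIST and Y-linked genes. The text names fewer of these. The members and lists were chosen with earlier results of these data known. The study's methods state that its experiments were repeated independently, and the labels do not tie the 3 libraries of a group to separate experiments, so p-values measure the spread between libraries, which may be technical. Alternatives were DESeq2 1.42.0, other scalings and filters, fewer libraries and a length and GC offset.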

Additional observations from a re-analysis of the deposited data

Results flagged for a closer look

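Among 126 genes checked by name, 67 differed between the siRNAs by adjusted p, and 9 of these by more than 1 on the log2 scale, in a test of the difference itself (siNTRK2 minus siBDNF, edgeR's quasi-likelihood test). For these the pooled value averages unlike changes. The targets were 2 of the 9: BDNF at 2.12 (adjusted p = 3.28e-20) and NTRK2 at -7.33 (adjusted p = 0.000273), the second a fitted value against 0 counts and no measure of size. The chemokines CXCL8 (-1.77, adjusted p = 2.9e-15), CXCL5 (-1.52, adjusted p = 0.00043) and CCL20 (-2.54, adjusted p = 0.00202) were lower with siNTRK2 than with siBDNF, CXCL5 and CCL20 at under 2 CPM in every senescent library. TIMP3 differed by -1.12 (adjusted p = 4.99e-16), lower with siNTRK2, and ANGPTL4, a secreted lipase inhibitor, by -1.08 (adjusted p = 2.57e-13), with 0.95 for siBDNF against the controls and -0.12 for siNTRK2. GBP1, an interferon-induced GTPase, was higher with siNTRK2 by 1.13 (adjusted p = 3e-12), rising with siNTRK2 (0.74) and falling with siBDNF (-0.39). VCAM1, an adhesion molecule for leukocytes, differed by 1.33 (adjusted p = 1.1e-09), with 0.16 for siNTRK2 and -1.17 for siBDNF. In groups of 3 libraries a single outlying library is hard to identify, and the fits with 1 library left out are given below.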

How the results depend on the processing

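With the 6 silenced libraries as 1 group, fitted on the 9 senescent libraries (21267 genes tested), the difference between the siRNAs adds by construction to the spread. The pooled count fell from 4661 to 2212, the count past both thresholds from 77 to 32, and the called members of all lists together from 430 to 231, against 4855, 71 and 434 with the same 9 libraries and a term for each siRNA. Of 25 counts of members called in 1 direction (lists with at least 5), 21 fell by over 1.5 times with 1 group, among them collagens (16 to 10), interferon-stimulated genes (12 to 7), SASP proteases (10 to 3), growth factors (10 to 4) and YAP and TGF-beta targets (9 to 4), 7 fell so without siCtrl_Sen 1, 6 without siCtrl_Sen 3 and up to 4 without any other library. The count past both thresholds was 20 when at least 10 counts were asked of every library and 18 with DESeq2, which gave no adjusted p for 57 of the 77 genes. Leaving out 1 library gave 2810 to 4873 pooled calls, 48 to 126 past both thresholds (48 without siCtrl_Sen 1, 126 without siCtrl_Sen 2, 119 without siNTRK2_Sen 2), 1059 to 2454 with both siRNAs, 306 to 445 called list members, and 2286 to 3770 genes that differed between the siRNAs (2286 without siBDNF_Sen 3). Scaling by library totals alone moved the share of higher calls from 50.4% to 64.7% pooled, from 52.7% to 69% with both siRNAs, from 51.9% to 63.9% past both thresholds and from 52.9% to 37.7% between the siRNAs, and 6 silenced libraries as 1 group moved it to 68.8% past both thresholds. The other counts over all genes stayed within 1.5 times. With the replicate number as a block 4699 pooled genes, 70 past both thresholds, 1984 with both siRNAs and 3621 between them were called. Deviations of same-numbered libraries correlated at -0.0396 to 0.0254, and those of differently numbered ones at -0.0489 to 0.0449. These correlations weigh all genes alike, those with few counts among them, so they cannot settle whether the numbers pair the libraries. None of 126 genes checked by name changed direction under any alternative that could be run. The 126 were named mostly for their calls in the main fit to the same counts, so this is no independent check. Of these, 19 lost their pooled call with the 6 silenced libraries as 1 group, 2 with library totals, 2 without a filter and 2 with the offset, 0 with DESeq2 where it gave an adjusted p, 1 (NTRK2) with the block, and 2 to 8 with 1 library left out, the most without siCtrl_Sen 1 or 3 (among them GBP1, CXCL5 and CCL20). The causes were not tested unless stated. NTRK2 and CCL20 rest on few counts.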

Other observations

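Gene families chosen after their values were seen gave further changes, not all of them shared, described without a test. Of 20 semaphorins, guidance proteins that also act on fibroblasts, 9 were called higher and none lower, 6 with both siRNAs (10.9% of all genes were called higher). SEMA7A, the membrane-anchored member, was at 108, 104 and 109 CPM in siCtrl_Sen, 156, 145 and 150 in siNTRK2_Sen and 176, 175 and 176 in siBDNF_Sen, a pooled log2 fold change of 0.60 ± 0.04. Of 31 ADAM and ADAMTS metalloproteinases, which shed membrane proteins and cleave matrix, 9 were higher and none lower, and 7 higher and 2 lower with the length and GC offset. With both siRNAs 4 were higher, 11 differed between the siRNAs, and the median was 0.34 with siNTRK2 and 0.08 with siBDNF. ADAM19 was at 266, 279 and 266 CPM in siCtrl_Sen, 417, 400 and 397 in siNTRK2_Sen and 399, 400 and 406 in siBDNF_Sen (0.58 ± 0.036), nearly the same with each siRNA, and ADAM12 rose by 0.69 ± 0.0571. Kinesins, motors of microtubules, had 15 of 34 higher and none lower, and 11 and none with the offset. Only 3 were higher with both siRNAs (4.77% of all genes were), and the median was 0.25 with siNTRK2 and 0.13 with siBDNF. Of 25 cadherins and protocadherins 7 were higher and 1 lower, 6 and none with both. With the offset the cadherin split was 6 higher and 3 lower.

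On the side of decreases, 18 of 73 mitochondrial ribosomal protein genes were called lower and none higher. This is a smaller share (24.7%, beside 10.7% of all genes) than among cytosolic ones. Of 26 snoRNA host genes 8 were lower and 1 higher, 5 lower with both siRNAs, and of 10 pregnancy-specific glycoproteins 6 were lower, 1 with both. Of 11 replication-dependent histone genes tested 7 were lower (3 without siCtrl_Sen 3 and 4 without siBDNF_Sen 2), and H1-2, a linker histone, was the 1 lower with both. It was at 73.2, 66.6 and 72.8 CPM in siCtrl_Sen, 39.2, 40.3 and 39.8 in siNTRK2_Sen and 55.8, 57.6 and 60.0 in siBDNF_Sen (-0.56 ± 0.047). Replication-dependent histone messages lack a poly(A) tail, and the libraries were selected on it. Among Wnt genes, FZD8, a receptor, rose with both (0.54 ± 0.0673), and the ligands WNT16 and WNT5B and the receptor FZD7 fell by 0.38, 0.29 and 0.30 on the log2 scale. In lipid synthesis HMGCS1, of the cholesterol path, rose by 0.33 ± 0.0538 and DHCR7, its last step, and the desaturase FADS2 fell by 0.29 and 0.25.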
